A study of Mus musculus with 6 samples.

Results

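The stefin A cluster genes of the mouse were read across the cell classes of neonatal and juvenile lung. The 6 genes, Stfa1, Stfa2, Stfa2l1, Stfa3, Cstdc4 and Cstdc5, were taken by symbol from the 32285 genes of the count tables, and all 6 were present. They were chosen by their measured counts in neutrophils at postnatal day 1 against day 21 in these same libraries. That age difference and their levels by cell class are therefore given as a description, without a test. The comparisons by hyperoxia and by sex were not part of the rule of choice and were tested. Earlier results of these data were known when the genes were chosen.

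Stefins are small inhibitors of papain-like cysteine proteases. They stay inside the cell, where they occupy the active-site cleft of cathepsins such as cathepsins B, L, H and S. Mice carry a tandem array of stefin A genes in place of the single gene of humans, and the array is known for its expression in the neutrophil lineage. Neutrophils are short-lived phagocytes whose granule proteins are made in a fixed order as they mature in the bone marrow.

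The study exposed C57BL/6N wild-type pups to hyperoxia, a model of the lung injury of preterm infants, with females and males pooled separately. Live cells of whole lung were profiled with droplet-based 3′ RNA sequencing, in which unique molecular identifiers (UMIs) count captured transcripts. The 6 libraries were 1 female and 1 male pool at day 1 in room air (21% oxygen), 1 of each sex at day 21 in room air, and 1 of each sex at day 21 that had breathed 95% oxygen over days 1 to 5 before return to room air. Each library pooled the lungs of 3 mice, so that every group had 1 library and no replicate. Intervals given for 1 library cover counting error only. The p-values rest on the spread that a fit leaves between libraries of different groups, shared across genes, and not on replicates.

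The libraries held 122173482 to 163649658 UMIs, and cells to which the authors gave a class had medians of 8329 to 9703 UMIs. Between 26 and 62 cell barcodes were shared by a pair of libraries, at most 0.465% of the smaller one. Neutrophils, with 871 to 1856 cells per library, expressed all 12 of the neutrophil markers checked, which summed to 126676 to 164048 CPM (counts of a gene scaled to a class total of 1e+06 UMIs). A UMI of Xist was held by 21.9% of female neutrophils at day 1 and 19.5% at day 21 in room air. The female hyperoxia library, with 10.6%, stood apart in this share. Its neutrophils with and without an Xist UMI held 4097 and 6001 CPM of the 6 genes together. Cells with an Xist UMI were also lower in the other female libraries. There the values were 80478 and 91883 CPM at day 1 and 9805 and 10674 CPM at day 21 in room air. The calls for hyperoxia are given with and without the female hyperoxia library.

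All 6 genes lie on chromosome 16 within 298.6 kb (36156811 to 36455392, GRCm38, GENCODE M21). On the forward strand, Stfa2l1 (ENSMUSG00000059657) spans 36156811 to 36161953, Cstdc4 (ENSMUSG00000079597) 36184212 to 36188111, and Stfa1 (ENSMUSG00000071562) 36276951 to 36285373. On the reverse strand, Cstdc5 (ENSMUSG00000071561) spans 36359382 to 36367748, Stfa2 (ENSMUSG00000022902) 36403992 to 36408457, and Stfa3 (ENSMUSG00000054905) 36450537 to 36455392. Their neighbours Csta2, Csta3 and Cstdc6 lie between them, and Csta1 lies just outside. The annotated transcripts are short, from 412 nucleotides for Stfa3 to 619 for Cstdc5, and counts per transcript end do not scale with their length.

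The transcripts resemble each other, which limits how far counts can be split between the genes. Stfa1 and Cstdc5 transcripts were 96.8% identical in a global alignment, while the other pairs shared 50.2% to 80.05%. Of the 91-base windows in the last 400 bases of the transcript, 27.7% for Cstdc5, 15.5% for Cstdc4, 12.3% for Stfa1, 2.26% for Stfa2 and for Stfa2l1, and 0 of 310 for Stfa3 occurred in another gene as well. Among the neighbours, 15.5% of such windows in Csta2 and 16.2% in Cstdc6 also occurred in another gene. The split of counts between Stfa1 and Cstdc5 is therefore uncertain, and counts of Cstdc4, Csta2 and Cstdc6 are not fully separable either. How reads that match several genes were counted is not given in the sources used here.

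Upstream sequence is shown because it holds runs that the 6 genes share. Printed here are the 150 bases before the start site of the 3 genes whose RefSeq and GENCODE starts coincide, 5′ to 3′ on the gene's strand (RefSeq, GRCm38.p6). Stfa2l1 is on the forward strand at chr16:36156661-36156810, Cstdc4 on the forward strand at chr16:36184062-36184211, and Stfa3 on the reverse strand at chr16:36455393-36455542. In Stfa1 and Cstdc5 all 150 bases before the RefSeq start site, and in Stfa2 94 of them, lie inside the GENCODE gene. The windows of these genes are thus upstream of the RefSeq start site only. Capitals mark the 3 runs of at least 10 bases that all 6 upstream windows of 250 bases hold in the same order.
Stfa2l1: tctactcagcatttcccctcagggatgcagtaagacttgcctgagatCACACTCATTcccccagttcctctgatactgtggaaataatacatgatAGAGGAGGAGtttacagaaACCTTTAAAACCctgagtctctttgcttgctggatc
Cstdc4: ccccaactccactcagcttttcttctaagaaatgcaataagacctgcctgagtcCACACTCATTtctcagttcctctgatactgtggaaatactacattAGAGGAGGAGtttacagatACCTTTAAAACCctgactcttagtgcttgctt
Stfa3: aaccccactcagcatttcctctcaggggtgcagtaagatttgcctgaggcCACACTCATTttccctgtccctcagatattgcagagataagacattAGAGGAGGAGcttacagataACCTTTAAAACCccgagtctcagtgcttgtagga

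The run nearest the start, ACCTTTAAAACC, began 32 bases before the start site in Cstdc4 and Stfa2, 33 in Stfa1, 34 in Stfa3, 36 in Stfa2l1 and 12 in Cstdc5. It occurred on the gene's strand in 9 of 27025 RefSeq promoters of the same length (0.0333%), of which 6 were the genes described here and 1 was Csta3. AGAGGAGGAG was held by 0.418% and CACACTCATT by 0.0629% of those promoters. These runs were picked because the 6 genes share them, so their rarity is a description. Of motifs searched on both strands, TTNNGNAA, a core bound by C/EBP factors of the myeloid lineage, was held by 5 of 6 windows (all but Stfa3) and by 36.9% of all promoters. AGGAAGT, an ETS-type core, and TATAAA were in 0 of 6 windows and in 7.80% and 13% of all promoters. Pairwise identity of the upstream windows ranged from 56.1% (Cstdc4 and Cstdc5) to 89.4% (Stfa2 and Stfa2l1).

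The 6 genes were far more abundant in neutrophils at day 1 than at day 21. Together they made up 88899 CPM in the female and 83570 CPM in the male library, against 10469 and 8627 CPM at day 21 in room air. The level was 8.49 times higher at day 1 in females and 9.69 times in males. The authors split a further class, Neutrophils Ngp+, from the day 1 libraries alone, named for a granule protein of immature neutrophils. Its 339 female and 322 male cells held 131630 and 128564 CPM, the highest sums of any class. With this class added to the day 1 neutrophils, a choice made after seeing the data, the ratios to day 21 were 10.5 and 12.0.

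Stfa1, a stefin A gene, was the most abundant member at day 1. It stood at 30738 CPM (female) and 28000 CPM (male) at day 1, 2349 and 2050 CPM in day 21 room air libraries, and 1157 and 1320 CPM in hyperoxia libraries. The day 1 level was 13.1 and 13.7 times that of day 21 in room air. The 3 conditions did not overlap, though how many of all genes separate in this way was not counted.

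Cstdc5, its near-identical partner, held 18336 and 17721 CPM at day 1, 2109 and 1617 CPM in day 21 room air libraries, and 937 and 1092 CPM in hyperoxia libraries. Day 1 exceeded day 21 in room air by 8.69 times in females and 10.96 times in males. Here too the 3 conditions did not overlap, again without a count of how many of all genes separate in this way.

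Cstdc4, a cystatin domain gene next to Stfa2l1, reached 17442 and 16490 CPM at day 1, 2341 and 2108 CPM in day 21 room air libraries, and 1482 and 1880 CPM in hyperoxia libraries. Its ratio of day 1 to day 21 in room air was 7.45 and 7.82. In each library at day 21 it was among the 2 most abundant members.

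Stfa2l1 had the smallest age ratio of the 6 genes. Its level was 10045 and 8977 CPM at day 1, 2329 and 1959 CPM in day 21 room air libraries, and 1564 and 1687 CPM in hyperoxia libraries, a ratio of 4.31 and 4.58 between the ages in room air. Its paralog Stfa2 held 9586 and 9616 CPM at day 1, 1144 and 753 CPM in day 21 room air libraries, and 491 and 508 CPM in hyperoxia libraries. Both were close at day 1, whereas at day 21 Stfa2l1 exceeded Stfa2 in all 4 libraries.

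Stfa3 was the least abundant member of the Neutrophils class in all 6 libraries and had the largest age ratio of the 6 genes. It held 2752 and 2766 CPM at day 1 and 196 and 139 CPM at day 21 in room air, 14.0 and 19.9 times apart. After hyperoxia it stood at 112 and 142 CPM, which overlapped room air. In the Ngp+ class it reached 10955 and 11420 CPM, and with that class added its age ratios were 34.5 and 46.9.

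**Figure D1:**
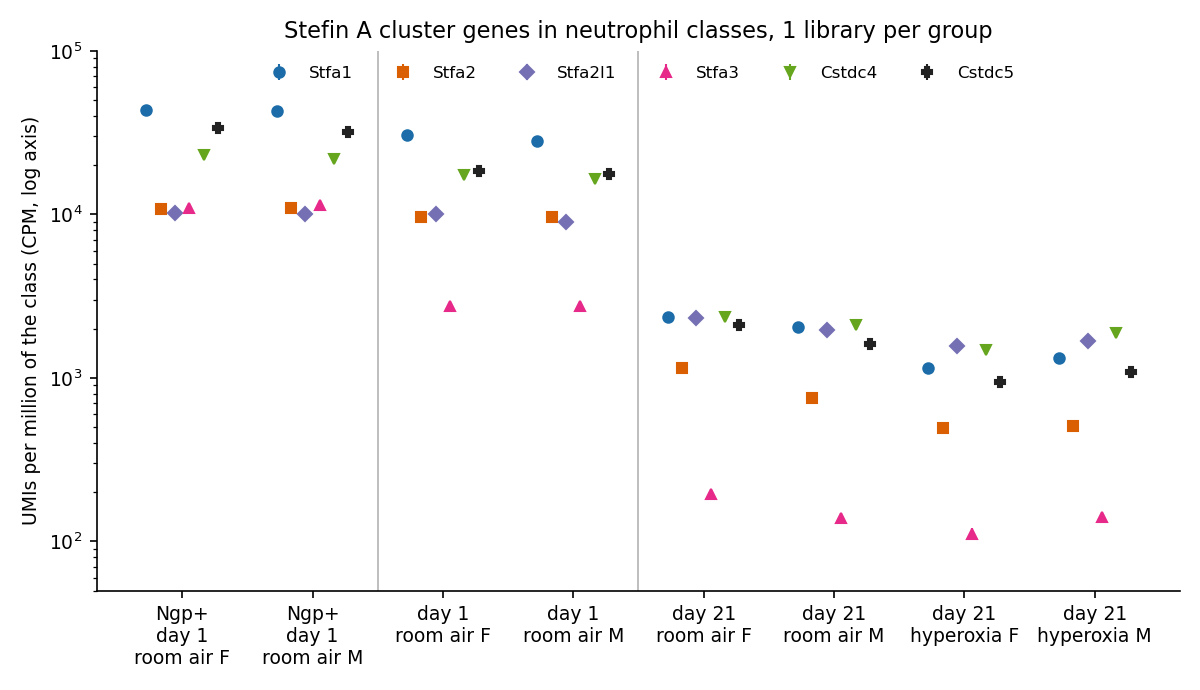
CPM of each of the 6 genes (log axis) in the Neutrophils Ngp+ and Neutrophils classes, with 1 point per library (F female, M male) and bars for exact Poisson 95% intervals, which are mostly smaller than the points. All 6 genes are lower at day 21 than at day 1, Stfa3 is lowest except in the Ngp+ class, and Stfa1 lies above the other members in both day 1 classes.

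The Ngp+ class differed from the other day 1 neutrophils by member. Stfa1 stood at 43137 and 42614 CPM in it, and Cstdc5 at 33790 and 31717 CPM. Stfa2, with 10705 and 10941 CPM, and Stfa2l1, with 10152 and 10037 CPM, differed little from their level in the other neutrophils. How the authors formed the class is not given in the sources used here, and these values describe it without a test.

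As a background, edgeR called 63.6% of 9930 genes different between the ages in neutrophils. Of 5 other cystatin genes with enough counts, 5 were lower at day 21. Csta2, a stefin A gene inside the array, fell from 5742 and 6640 CPM to 132 and 144 CPM, and Csta3, its neighbour, from 2032 and 2427 CPM to 91.6 and 94.2 CPM, with ratios of 43.5 and 46.0 for Csta2 and 22.2 and 25.8 for Csta3. Cstdc6 fell from 87.0 and 99.7 CPM to 14.5 and 12.2 CPM. Cstb, the unclustered stefin B, fell from 92.0 and 103 CPM to 75.3 and 84.1 CPM, and Cst3, the secreted cystatin C, fell by 0.42 on the log2 scale. Of 9 cysteine protease genes, those of cathepsins and of legumain (Lgmn, no cathepsin), 3 were called higher (Ctss, Ctsk and Lgmn) and 2 lower (Ctsl and Ctsz) at day 21.

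Other readouts moved with age as well. Day 1 libraries carry Cell Ranger 6.0.0 and day 21 libraries 7.0.1 in their file headers, so age and software version cannot be told apart. The deposited Ngp+ class exists only at day 1, and Ngp within the Neutrophils class was 115 and 124 CPM at day 1 against 1446 and 1610 CPM at day 21 in room air. Of 8 genes of a specific granule list, which also holds Padi4 (no granule protein), 6 were called higher at day 21 and 1 lower. Their median log2 change was 1.65. Their sum was 2765 and 3409 CPM at day 1 and 5412 and 5269 CPM at day 21 in room air. The median share of mitochondrial UMIs per neutrophil was 0.573% and 0.550% at day 1 and 0.180% and 0.2196% at day 21 in room air. Of 12 neutrophil markers 5 were called higher and 6 lower at day 21, with a median log2 change of -0.19 and values from -1.65 (Retnlg) to 1.37 (Csf3r). Among them S100a8 and S100a9, which encode the subunits of calprotectin, differed by 1.18 and 1.26 times (S100a8) and 1.14 and 1.26 times (S100a9), with day 1 higher. Classical monocyte markers in the neutrophil sums were 204 and 192 CPM at day 1 and 116 and 96.4 CPM at day 21 in room air, and erythroid markers were 1083 and 6.82 CPM against 1.76 and 3.96 CPM, the first value being that of the female library alone. Of 4 nonclassical monocyte markers 2 were called higher and 1 lower at day 21, with a median log2 change of 0.67. Of 3 platelet markers 0 were called higher and 2 lower, with a median of -1.49. Keratinocyte markers, checked because stefins are also epithelial genes, stayed at or below 0.895 CPM, with 5 of 6 at 0 in every library. The part of these shifts in the age difference was not tested.

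The difference with age was seen across the cells of the class. In the median day 1 neutrophil the 6 genes took 8.43% (female) and 7.93% (male) of all UMIs, and in the Ngp+ class 14.2% and 13.9%. For day 21 the medians were 0.465% and 0.339% (room air) and 0.250% and 0.338% (hyperoxia). The 5th percentile at day 1, 2.48% and 2.82%, lay above the 75th percentile of every day 21 library (0.651% to 1.19%). All 6 genes were detected together in 85.5% and 86.3% of day 1 neutrophils, in every Ngp+ cell, and in 9.54%, 8.70%, 5.74% and 5.62% at day 21 (female and male room air, then female and male hyperoxia). Median depth was lower at day 1 (3620 and 3410 UMIs per neutrophil) than at day 21 (5084 and 5331 in room air). After each cell was thinned to 2000 UMIs the median shares were 8.55% and 8% at day 1 and 0.450% and 0.350% at day 21 in room air.

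**Figure D2:**
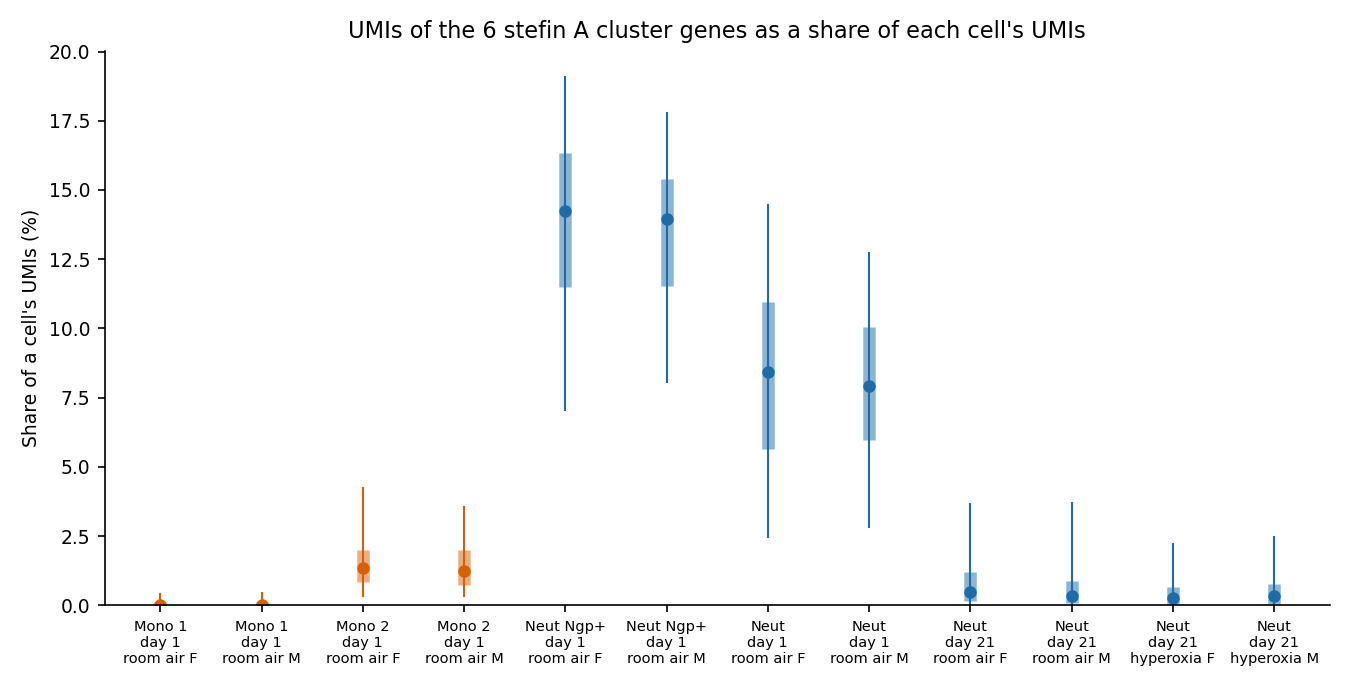
Share of each cell's UMIs (%) that came from the 6 genes, by class (Mono, Classical Monocytes; Neut, Neutrophils) and library; points are medians over cells, thick bars span the 25th to 75th and thin lines the 5th to 95th percentile. Day 1 neutrophils have medians of 7.93% to 14.2%, day 21 neutrophils of at most 0.465%, and Classical Monocytes 2 lie between them.

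The members also differed in how many day 21 neutrophils held them. Stfa1, Stfa2l1 and Cstdc4 had like CPM in room air, yet Stfa1 had a UMI in 48.0% and 40.5% of cells, Cstdc4 in 66.2% and 61.9%, and Stfa2l1 in 74.1% and 69.8%. Cstdc5 had one in 50.1% and 42.5%, Stfa2 in 34.9% and 26.2%, and Stfa3 in 15.03% and 13.5%. Stfa1 UMIs were thus held by fewer cells than those of Stfa2l1 in both room air libraries. At day 1 the share was 85.8% and 86.5% for Stfa3 and at least 97.8% for the other members.

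The 95th percentile of day 21 neutrophils was 3.66% and 3.70% in the room air libraries, above the 5th percentile of day 1. It was 2.20% and 2.477% in the hyperoxia libraries, below the 5th percentile of both day 1 libraries (2.484% and 2.82%). Within a library the counts of the members were positively correlated from cell to cell. On thinned counts the 15 pairs had a median Spearman correlation of 0.64 (female) and 0.57 (male) over 1110 and 1214 cells at day 1, 0.43 and 0.44 in room air libraries of day 21, and 0.34 and 0.30 in hyperoxia libraries. Cstdc5 with Stfa2 was the closest pair in the day 1 female library (0.76) and in the 4 libraries at day 21 (0.66 and 0.64 for room air, 0.57 and 0.52 for hyperoxia). In the day 1 male library the near-identical Stfa1 and Cstdc5 were closest, at 0.66. Stfa2l1 with Stfa3 was the most distant pair in all 6 libraries, from 0.46 in day 1 females to 0.19 in females after hyperoxia. Counts were sparser at day 21 than at day 1, and the part of this in the lower correlations was not tested.

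To place this variation in neutrophil maturation, cells were split at 10 UMIs in 2000 of the specific granule list. The list holds Ltf, Camp, Ngp, Lcn2, Cd177, Chil3, Mmp8 and, though no granule protein, Padi4. The split was chosen after seeing the data and is given with no test. Between 6.82% and 22.7% of cells of the Neutrophils class lay above it, and 70 to 285 cells per library within 3 UMIs of it, so the split cuts a range and defines no cell type. Stfa3 differed most across it. Cells above and below held 4726 and 1874 CPM of Stfa3 in day 1 females and 4198 and 1910 CPM in day 1 males. At day 21 in room air the values were 552 and 104 CPM in females and 364 and 94.2 CPM in males. After hyperoxia they were 381 and 55.2 CPM in females and 241 and 89.1 CPM in males, so Stfa3 was higher in granule-gene-rich cells in all 6 libraries.

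Stfa2l1 behaved otherwise at day 21. Cells above and below the split held 11449 and 9564 CPM (female) and 10009 and 8421 CPM (male) at day 1. In room air at day 21 they held 1899 and 2374 CPM (female) and 1182 and 2051 CPM (male), and after hyperoxia 1244 and 1629 CPM and 1397 and 1804 CPM. It was thus higher above the split in both day 1 libraries and lower above it in all 4 day 21 libraries. In cells below the split the 6 genes summed to 78867 and 75290 CPM at day 1 and to 9568 and 8322 CPM at day 21 in room air. The genes that define the split differed with age themselves, from -1.52 (Mmp8) to 5.62 (Ltf) in log2 units, day 21 minus day 1. Cells on the same side of it therefore need not be alike at both ages. The part of maturation in the age difference was not tested.

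The make-up of the sum differed between the ages as well, which cannot be told apart from the software version. Of the UMIs of the 6 genes in neutrophils, Stfa1 gave 34.6% and 33.5% at day 1 and 22.4% and 23.8% at day 21 in room air. Stfa2l1 went the other way, with 11.3% and 10.7% at day 1 and 22.3% and 22.7% at day 21. Cstdc5 stayed between 18.7% and 21.2% in room air at both ages, and Stfa3 gave 3.1% and 3.31% at day 1 and 1.87% and 1.61% at day 21. In the Ngp+ class Stfa3 gave 8.32% and 8.88% and Cstdc5 25.7% and 24.7%. After hyperoxia Stfa2l1 (27.2% and 25.4%) and Cstdc4 (25.8% and 28.4%) were the leading members.

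**Figure D3:**
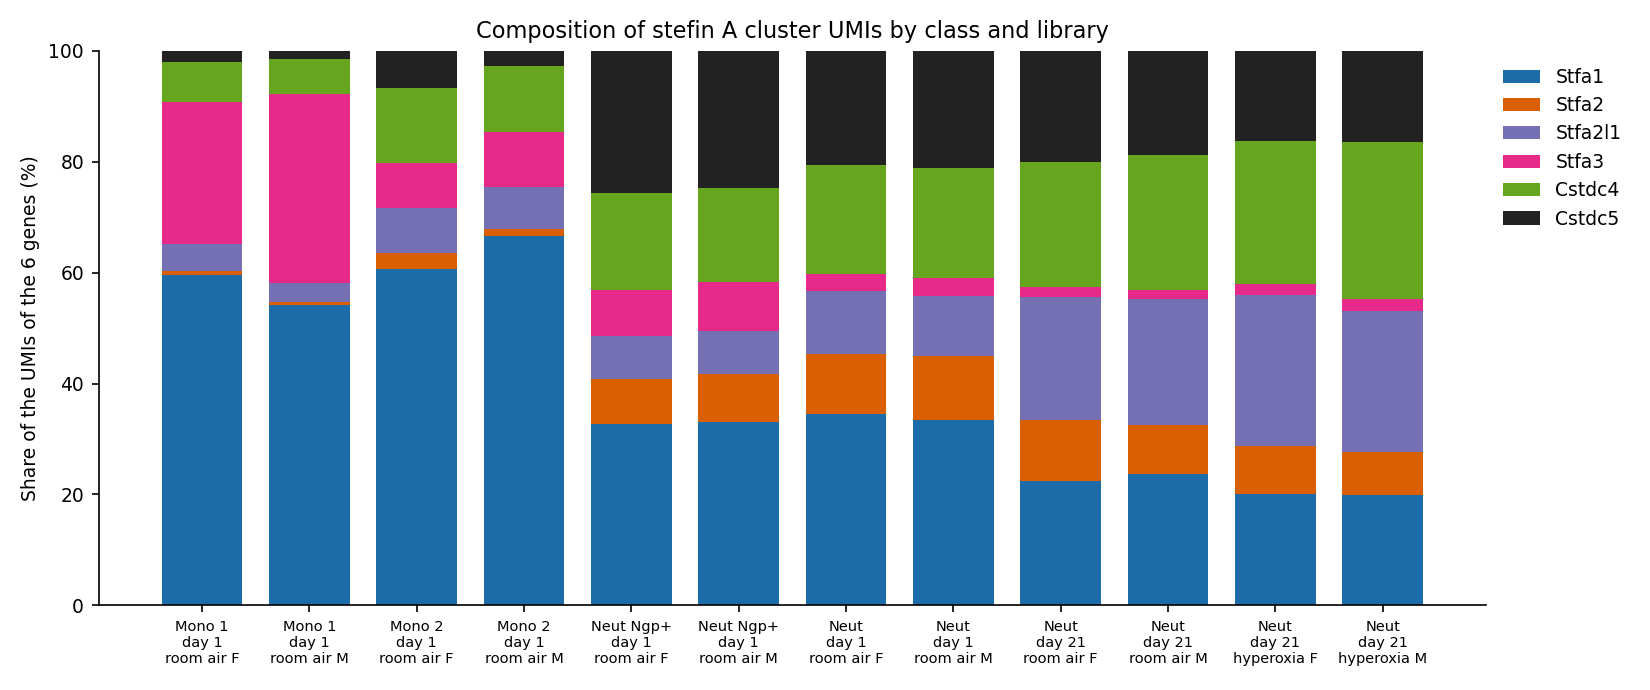
Share (%) of the UMIs of the 6 genes that each gene gave, with 1 stacked bar per class and library that sums to the whole. Stfa1 gives 33.5% to 34.6% in day 1 neutrophils and 19.9% to 23.8% at day 21, while Stfa2l1 gives at most 11.3% and at least 22.3%, respectively.

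Hyperoxia from day 1 to day 5 was followed at day 21 by lower levels of 3 of the 6 genes in neutrophils. Stfa1, Stfa2 and Cstdc5 passed the test, and Stfa2l1, Cstdc4 and Stfa3 did not. The test was edgeR's quasi-likelihood test on the summed counts of the 4 libraries at day 21, with sex as a covariate and Benjamini-Hochberg adjustment over 10424 genes. It called 0.950% of all genes and 0.585% of them lower, against 3 of the 6 genes, all lower. Stfa1 and Cstdc5, both called, have transcripts that are 96.8% identical, so their counts and calls are not fully separate.

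Stfa1 fell by 0.87 in log2 units (SE 0.125, edgeR adjusted p = 0.0219). Stfa2 fell by 0.93 (SE 0.152, edgeR adjusted p = 0.0306). Cstdc5 fell by 0.91 (SE 0.149, edgeR adjusted p = 0.0306). For each of these both hyperoxia libraries lay below both room air libraries.

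The other members had smaller estimates. Stfa2l1 had a log2 fold change of -0.43 (SE 0.123, edgeR adjusted p = 0.179). Cstdc4 had -0.45 (SE 0.137, edgeR adjusted p = 0.207). Stfa3 had -0.43 (SE 0.174, edgeR adjusted p = 0.355). In Stfa2l1 and Cstdc4 the libraries of the conditions did not overlap either, whereas the male hyperoxia library held slightly more Stfa3 than the male room air library. The share of all genes that separate in this way was not counted. The separation is therefore a description only, for called and uncalled members alike.

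Only Stfa1 was called under all 10 alternatives tried, with log2 fold changes of -0.98 to -0.76 and adjusted p-values of 1.25e-16 to 0.0488; the estimates of the 6 genes were below 0 in all 10. In 4 of the 10 a library was left out, so that 1 arm held 1 library, assumed to vary like the other arm. Stfa2 and Cstdc5 were called in 8 of them, Stfa2l1 in 4, and Cstdc4 and Stfa3 in 3. Without the female hyperoxia library 4 members were called, Stfa2l1 added, where 7.78% of all genes were. That fit compares 1 male hyperoxia library with the room air libraries of both sexes, has no sex covariate and takes its spread from the room air libraries alone, so its calls are no replicate check. Without the female room air library Stfa1 alone was called, where 1.42% of all genes were. DESeq2 called 0.336% of genes and also 3 members, but these were Stfa1, Stfa2l1 (adjusted p = 0.0319) and Cstdc4 (adjusted p = 0.0446), so the tools shared 1 call. Its adjusted p was 0.0742 for Cstdc5 and 0.106 for Stfa2.

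**Figure D4:**
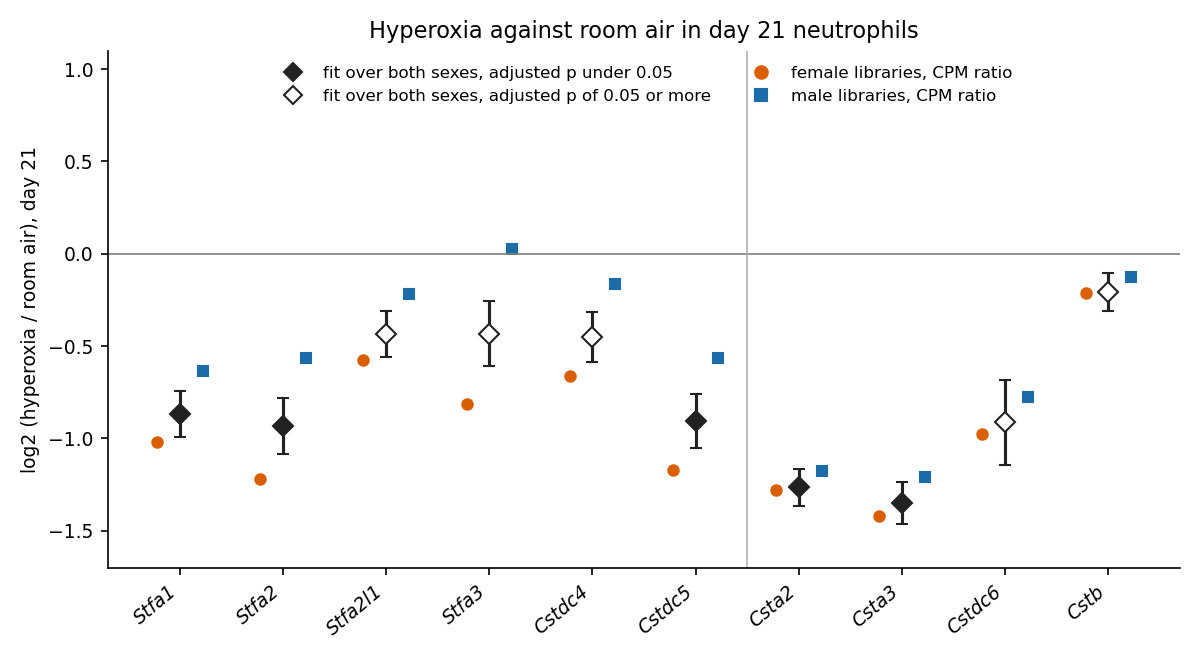
Log2 ratio of hyperoxia to room air in day 21 neutrophils for the 6 genes (left) and 4 other cystatins (right); circles and squares are the CPM ratios of the female and male libraries, and diamonds are the edgeR estimates over both sexes with bars of 1 SE, filled where the adjusted p is under 0.05. Stfa1, Stfa2 and Cstdc5 are filled at -0.87 to -0.93, Csta2 and Csta3 lie lower still, and the male ratio of Stfa3 is at 0.03.

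Csta2 and Csta3, neighbours inside the array, had the smallest p-values of all genes in this comparison. Csta2 went from 132 and 144 CPM in room air (female and male) to 54.4 and 63.8 CPM after hyperoxia, with a log2 fold change of -1.27 (SE 0.102, edgeR adjusted p = 0.00493). Csta3 went from 91.6 and 94.2 CPM to 34.2 and 40.7 CPM, with a log2 fold change of -1.35 (SE 0.116, edgeR adjusted p = 0.00493). Cstdc6, with 7.16 to 14.5 CPM, had an estimate of -0.91 (edgeR adjusted p = 0.134). Outside the array, Cstb had -0.21 (edgeR adjusted p = 0.468). Of 5 other cystatins tested, 2 were lower and 0 higher, with a median of -0.91 against 0.01 over all genes. Of 9 cysteine protease genes (cathepsins and Lgmn) 0 were called, with a median of 0.02. Without the female hyperoxia library, with 1 hyperoxia library left, the estimates were -1.15 for Csta2, -1.23 for Csta3 and -0.96 for Cstdc6.

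Markers of maturation and of other cells were read beside this result. Of 8 genes of the specific granule list 1 was called, Chil3, which encodes a chitinase-like protein, higher by 0.69 (edgeR adjusted p = 0.0470). The median of the list was 0.38. Of 8 genes of late neutrophil maturation 1 was called, Retnlg, which encodes a resistin-like protein, higher by 0.84 (edgeR adjusted p = 0.0258), and the median was -0.12. Both belong to more than one list. Of 5 macrophage markers 2 had enough counts, Chil3 again and Ear2, and both were higher; the 5 summed to 165 and 143 CPM in room air and 240 and 255 CPM after hyperoxia. Classical monocyte markers, with 3 tested and 0 called, summed to 116 and 96.4 CPM in room air and to 136 and 159 CPM after hyperoxia. Nonclassical monocyte markers, with 4 tested and 0 called, had a median of 0.34. Their sums were 200 and 186 CPM in room air and 246 and 205 CPM after hyperoxia. Eosinophil markers, with 2 tested and 0 called, had a median of -0.63. They summed to 13.3 and 13.5 CPM in room air and to 10.0 and 8.80 CPM after hyperoxia. Of 3 platelet markers 0 were called, with a median of 1.14, and their sum was 2.54 and 13.9 CPM in room air and 5.11 and 26.0 CPM after hyperoxia. The fit without the female hyperoxia library had 1 hyperoxia library left. Its estimates ran from -0.09 (Padi4) to 0.90 (Camp) over the 8 genes of the specific granule list. They ran from -0.46 (Cxcr2) to 0.93 (Retnlg) over the 8 late maturation genes. Of the macrophage markers, that fit gave 0.74 for Chil3 and 0.90 for Ear2. It gave -4.31 for C1qa and -3.52 for C1qb, which the main fit did not test. Its estimates for the 3 platelet markers ran from 1.43 (Itga2b) to 2.62 (Ppbp). The part of these shifts in the lower stefin A levels was not tested.

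Split by sex, the summed level of the 6 genes was 1.82 times lower after hyperoxia in females and 1.30 times lower in males, and the female value uses the hyperoxia library that stood apart. Cell by cell, the median neutrophil gave 0.465% of its UMIs to the 6 genes in room air and 0.250% after hyperoxia in females, and 0.339% and 0.338% in males. In males the 95th percentile was 3.70% in room air and 2.477% after hyperoxia, so the male libraries differed more in the upper tail than in the median cell. The interaction of sex and hyperoxia was fitted over all 6 libraries, since each day 21 group holds 1 library. The fit assumes the same sex difference in room air at both ages, and its 1 residual degree of freedom rests on that. It had 0 calls among the 6 genes by edgeR, with log2 estimates from -0.57 (Stfa3, adjusted p = 0.152) to -0.31 (Stfa2l1, adjusted p = 0.654). The 6 estimates, which share the same libraries, were all below 0, the side of a larger fall in females. An unadjusted p under 0.05 was reached by 5 of the 6 genes, from 0.00307 (Stfa3) to 0.0486 (Stfa2), and by 947 of all 11304 genes, of which 1.13% were called. DESeq2 called 0 genes, and 0 of the 6 had an unadjusted p under 0.05 by it, against 97 of all genes. Between females and males over the 6 libraries edgeR called 0 of the 6 genes and 0.104% of 10536 genes, with 553 at an unadjusted p under 0.05, and DESeq2 called 0 of the 6. The estimates, female minus male, ran from -0.06 (Cstdc4) to 0.16 (Stfa2), with SEs of 0.0999 to 0.131.

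Outside neutrophils the sum of the 6 genes was highest in a day 1 class that the authors named Classical Monocytes 2. Its 274 female and 335 male cells held 17138 and 14989 CPM, against 976 and 984 CPM in Classical Monocytes 1. The other 16 classes at day 1 held medians of 599 and 298 CPM. At day 21 the classes other than neutrophils held medians of 22.9 and 5.92 CPM (room air) and 8.86 and 16.5 CPM (hyperoxia).

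In Classical Monocytes 2 the members stood at unequal shares of their neutrophil level. Stfa3 stood there at 49.7% and 53.5% of its neutrophil level, and Stfa1 at 33.8% and 35.6%. Stfa2l1 stood at 14.1% and 12.8%, and Cstdc4 at 13.3% and 10.8%. Cstdc5 reached 6.30% and 2.34%, and Stfa2 5.17% and 2.002%. Over the other 16 classes at day 1 the highest level of Stfa2 was 5.31% (Pericytes, female) and 3.33% (Prolif Ecs, male), and that of Cstdc5 was 5.58% and 3.11% in the same classes. Of these 4 comparisons Cstdc5 in females alone was above the highest other class. The medians over the 16 classes were lower, at 0.555% and 0.277% for Stfa2 and 0.695% and 0.295% for Cstdc5. The highest level of Stfa3 in those 16 classes was 7.02% and 4.13%, and that of Stfa1 5.27% and 2.88%.

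Of the neutrophil markers listed above, S100a8 stood in this class at 41.5% and 40.6% of its neutrophil level. S100a9 stood at 13.5% and 9.94%, and Retnlg at 5.35% and 2.13%. These reference genes thus differed among themselves in this class. Whether its cells make S100a8 and S100a9 themselves was not tested. The ratio of the 6 genes to S100a8 and S100a9 was 0.770 and 0.805 times that of neutrophils. Relative to Retnlg and Csf3r it was 3.25 and 6.82 times that of neutrophils, so the direction turned with the reference genes. In Classical Monocytes 1, Stfa3 held 9.06% and 12.1% and Stfa1 1.89% and 1.90% of the neutrophil level, while Stfa2 held 0.0723% and 0.0616%.

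**Figure D5:**
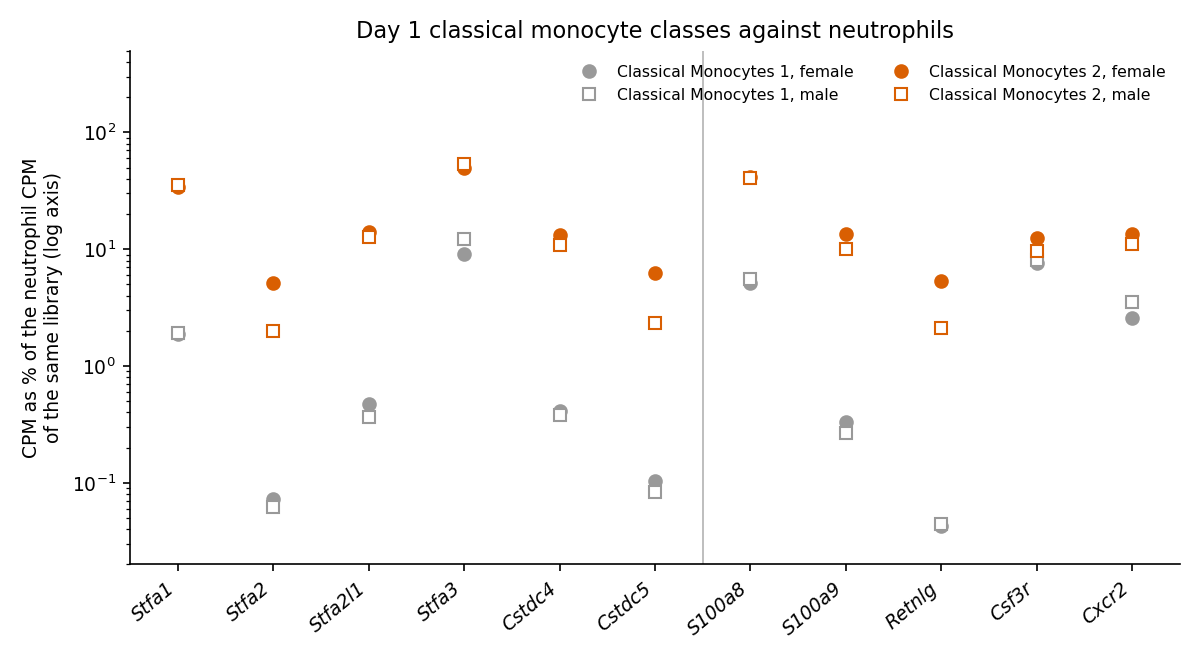
Level of each of the 6 genes and of reference genes in the Classical Monocytes 1 and 2 classes at day 1, as % of the level in neutrophils of the same library (log axis), with 1 point per library. Stfa3 and Stfa1 lie highest of the 6 genes in both classes, and Stfa2 and Cstdc5 lowest.

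The 6 genes were also read against neutrophil genes in every other class. Over 18 classes at day 1 the ratio of the 6 genes to S100a8 and S100a9, relative to neutrophils, had a median of 0.960 (0.252 to 1.32) in females and 0.936 (0.219 to 1.25) in males. Against Retnlg and Csf3r the median was 1.25 (0.489 to 3.25) and 1.59 (0.604 to 6.82), so the side of 1 on which it lay turned with the reference genes. Stfa1 had a UMI in 32.2% and 29.4% of alveolar macrophages at day 1 at median depths of 14826 and 18322 UMIs, and in 4.05% and 7.34% after thinning to 2000 UMIs. In neutrophils at the same thinned depth the share was 99.8% and 100%. At day 21 in room air, 48.0% and 40.5% of neutrophils and 3.28% and 1.44% of alveolar macrophages held a Stfa1 UMI.

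Of 35 pairs of a member and another class tested for hyperoxia at day 21, edgeR called 4, against 2.38% of all pairs of gene and class. In Classical Monocytes, where 1.76% of genes were called, Stfa2l1 was higher by 1.23 (SE 0.358, edgeR adjusted p = 0.0411), from 49 and 4 UMIs (room air) and 24 and 40 (hyperoxia). By class totals the females stood at 5.62 and 5.63 CPM and the males went from 0.831 to 10.5 CPM, so the higher level was in the male libraries. In the male hyperoxia library 30 of those 40 UMIs came from 1 cell. Stfa1 had a log2 fold change of -0.95 there (SE 0.283, edgeR adjusted p = 0.0483), with 170 and 35 UMIs in room air and 5 and 53 after hyperoxia. By class totals the females went from 19.5 to 1.17 CPM and the males from 7.27 to 13.95 CPM, so the lower level was in the female pair. Its hyperoxia library stood apart in the Xist share of neutrophils, which was not read in monocytes. In the male libraries 30 of those 35 UMIs and 26 of those 53 came from 1 cell each. Cstdc4 in Myofibroblasts had 10 and 30 UMIs in room air in 3 and 2 cells, and 0 after hyperoxia (edgeR adjusted p = 9.63e-06). Stfa1 in Venous cells had 0 UMIs in room air and 14 and 19 after hyperoxia, each from 1 cell (edgeR adjusted p = 0.000132). Without the female hyperoxia library 5 of 53 pairs were called, against 1.77% of all pairs of gene and class in that fit, and 2 of the 5 were among these 4 (Stfa2l1 in Classical Monocytes and Cstdc4 in Myofibroblasts). DESeq2 called 0 of 73 such pairs.

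Genes whose levels ran most like the sum of the 6 were found by Pearson correlation of log2(CPM + 1). Over 112 pairs of class and library these were Csta2 (0.93), Csta3 (0.92), S100a8 (0.91), Olfm4 (0.90), S100a9 (0.87), Retnlg (0.86), Asprv1 (0.85) and Mmp8 (0.82), of 14643 genes compared. Pairs of a class and a library share that library and any free RNA in it. Olfm4, which encodes a granule glycoprotein of a subset of neutrophils, held 1245 and 1316 CPM in neutrophils at day 1 and 102 and 71.0 CPM at day 21 in room air. Over the 6 neutrophil sums alone, which fall into 2 age clusters, Nsfl1c, Casp9, Mfsd10, Csta2, Crlf2, Tmem18, 2010320M18Rik and Yy1 were closest of 8932 genes. Csta2 was the gene found in both lists.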

How the data were processed

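Gene counts (UMIs per gene and cell barcode) and a class per cell were deposited by the authors. Per the file headers, Cell Ranger 6.0.0 made the day 1 and 7.0.1 the day 21 counts, whereas the submitters' processing notes name 6.0.0, with Seurat 4.1.1 and mm10. Whether intronic reads were counted, and how reads shared by paralogs were handled, is not given in the sources used here. Barcodes without a class were left out. No doublet caller was run, and whether the authors removed doublets is not stated in the sources used here.

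Counts were summed per class and library (at least 50 cells) and divided by the class total (CPM). Exact Poisson 95% intervals and shares of cells cover counting error only. Shares were also read after thinning to 2000 UMIs per cell. Hyperoxia, sex and interaction were tested over all genes with edgeR 4.0.16 (quasi-likelihood, TMM, expression filter, Benjamini-Hochberg, adjusted p under 0.05) and, as an alternative, DESeq2 1.42.0, in R 4.3.3; SEs are the log2 fold change over the square root of F. The hyperoxia fit and the interaction fit each have 1 residual degree of freedom. Hyperoxia fits that leave out a library drop the sex covariate, whereas such sex fits keep theirs. The 6 genes and the lists were chosen with earlier results of these data known. Named genes were the 6 members, listed genes with counts in neutrophils, and the 8 genes most alike by correlation over classes and over neutrophil sums.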

Additional observations from a re-analysis of the deposited data

Results flagged for a closer look

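Barcodes to which the authors gave no class were used in no comparison, yet they held UMIs of the 6 stefin A genes. Their summed level was 7636 CPM in the day 1 female and 5849 CPM in the day 1 male library. At day 21 it was 441 CPM (female) and 215 CPM (male) in room air, and 93.8 CPM (female) and 122 CPM (male) after hyperoxia. These barcodes gave 25.4% and 22.6% of all UMIs of the 6 genes at day 1 and 12.1% to 17.7% at day 21. Which cells they hold was not tested.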

How the results depend on the processing

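In neutrophils, the count of members called for hyperoxia (3, where 0.950% of all genes were called) was 6 with no expression filter (2.48% of genes). Leaving out 1 library gave 1 to 6: 1 without the female room air library (1.42% of genes), 4 without the male room air library (1.70%), 4 without the female hyperoxia library (7.78%) and 6 without the male hyperoxia library (2.96%). Each of these fits has an arm of 1 library, assumed to vary like the other arm. In other classes the 4 calls of 35 pairs (2.38% of all pairs of gene and class) became 0 of 73 with DESeq2 (0.416%), 1 of 35 with no covariate (1.04%), 15 of 73 with no filter (2.31%) and 2 of 35 with upper-quartile scaling (2.53%). Leaving out 1 library gave 5 to 7: 5 of 53 without the female hyperoxia library (1.77%), 6 of 51 without the male one (1.32%), 6 of 42 without the female room air library (2.64%) and 7 of 49 without the male one (2.54%). In the same order, 2, 1, 1 and 1 of these calls were among the 4. The log2 ratio of day 21 to day 1 (-3.09 in females, -3.28 in males) was -3.10 and -3.40 with TMM, and, in alternatives chosen after seeing the data, -3.16 and -3.25 with equal cells and -3.39 and -3.58 with the Ngp+ class added. Summed CPM in neutrophils after thinning was 84370 and 80187 at day 1, 9954 and 8355 in day 21 room air libraries, and 5482 and 6420 in hyperoxia libraries. With equal cells it was 89228 and 83031 at day 1 and 10004 and 8753 at day 21 in room air, and with a stricter cell filter 83962 in day 1 males. The Classical Monocytes 2 ratio was 3.25 and 6.82 with Retnlg and Csf3r. Median Spearman correlations on unthinned counts were 0.84, 0.82, 0.46, 0.44, 0.38 and 0.32, in the order day 1, room air and hyperoxia, female before male. Uncalled sex estimates (female minus male) changed sign. With no covariate Stfa2 was at -0.015, Stfa3 at -0.053 and Cstdc4 at 0.0053, and with equal cells Stfa3 was at -0.074. Leaving out 1 library gave -0.075 to 0.14 for Stfa1, -0.076 to 0.28 for Stfa2, -0.021 to 0.18 for Stfa2l1, -0.22 to 0.20 for Stfa3, -0.18 to 0.090 for Cstdc4 and -0.13 to 0.19 for Cstdc5. The cause of these changes was not tested. No paired analysis was possible by replicate number because each group has 1 library; sex, which matches the hyperoxia and room air libraries, is already a covariate of that test, and without it 3 members were called in neutrophils (0.911% of genes).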
